A study of Mus musculus with 4 samples.

Results

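The regions described are the CCGG sites of 4 large olfactory receptor gene clusters of the mouse genome, on chromosomes 2, 7, 9 and 19. The sites were taken by position alone, as every CCGG site of genome build mm9 in the windows chr2:85000000-90200000, chr7:109500000-113000000, chr9:37500000-40200000 and chr19:12000000-14000000. These windows span 13.4 Mb and held 5444 of the 1594137 CCGG sites in the data. The chromosome 2 window held 1821 sites, the chromosome 7 window 1735, the chromosome 9 window 1019 and the chromosome 19 window 869.

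DNA methylation was compared between 2 sorted fractions of MC1-ZE7, an embryonic stem cell line from mouse strain 129S6/SvEvTac, at passage 31. The line carries the fluorescent protein Emerald under the promoter of Zscan4c, and both fractions come from this reporter line, cultured without feeder cells in medium with leukemia inhibitory factor. Emerald-high cells, in which that promoter was active, were set against Emerald-negative cells, to ask whether methylation differs with Zscan4 activity. Each fraction was cut with HpaII in 1 library and with MspI in another, so 4 libraries were made and no value has a replicate check. The Emerald-high libraries held 5662614 tags with HpaII and 9372711 with MspI, and the Emerald-negative ones 9535691 with HpaII and 9307616 with MspI. The windows took 12018 of the Emerald-high HpaII tags, 20809 of the Emerald-high MspI tags, 18062 of the Emerald-negative HpaII tags and 20702 of the Emerald-negative MspI tags.

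Olfactory receptors are G protein-coupled receptors that bind odorants, and they form the largest gene family of the mouse. A mature olfactory neuron transcribes a single allele of a single receptor gene, and outside the nose most receptor genes are silent. The genes are short, lie in tandem arrays that grew by duplication, and mostly lack the CpG islands found at the promoters of broadly expressed genes. HELP tagging sequences a tag next to each cut CCGG site: HpaII cuts only where the central CG is unmethylated, and MspI cuts in either state. More HpaII tags per MspI tag therefore mean less methylation at that site, relative to the rest of the library.

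The gene content of the windows could be stated only by name, since the annotation used here is of build GRCm38.p6 and its coordinates were not carried over to mm9. In that assembly the longest run of Olfr genes on chromosome 2 holds 222 genes, between Olfr987 and Olfr1274. The longest run on chromosome 7 holds 91, between Olfr543 and Olfr649, and also includes the beta-globin genes Hbb-bt, Hbb-bs, Hbb-bh1, Hbb-bh2 and Hbb-y, which encode the beta chains of hemoglobin. The longest run on chromosome 9 holds 95, between Olfr160 and Olfr986, and that on chromosome 19 holds 43, between Olfr1442 and Olfr1505. Which of these genes lie inside the mm9 windows was not tested.

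CCGG was rare at the starts of olfactory receptor genes, so HELP tagging has few sites there to read. The letters CCGG, the same on both strands, were searched in the RefSeq promoters of GRCm38.p6, from 250 bases before to 50 bases after each annotated start. They were present in 47 of 948 Olfr promoters (4.96%), against 17338 of all 32851 promoters (52.8%). In the 4 longest runs, 14 of 387 Olfr promoters held a CCGG (3.62%). These were 2 of 187 on chromosome 2, 5 of 80 on chromosome 7, 6 of 80 on chromosome 9 and 1 of 40 on chromosome 19. The median Olfr promoter of these runs held 1 CG dinucleotide and 33.7% G+C, against 7 CG dinucleotides and 52.7% G+C over all promoters. The sequences below are GRCm38.p6 promoters from RefSeq, with CCGG in capitals. For each chromosome the promoter with most CCGG is shown, the first by symbol where several tie, and for chromosome 2 also the first by symbol with no CG at all, Olfr1006.
Olfr1009, chr2:85721157-85721456, plus strand: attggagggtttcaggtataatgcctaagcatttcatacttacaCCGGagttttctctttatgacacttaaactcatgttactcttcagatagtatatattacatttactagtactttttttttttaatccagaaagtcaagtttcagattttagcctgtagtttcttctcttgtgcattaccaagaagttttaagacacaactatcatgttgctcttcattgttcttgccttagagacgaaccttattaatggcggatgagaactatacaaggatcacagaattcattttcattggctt
Olfr1006, chr2:85678692-85678991, minus strand: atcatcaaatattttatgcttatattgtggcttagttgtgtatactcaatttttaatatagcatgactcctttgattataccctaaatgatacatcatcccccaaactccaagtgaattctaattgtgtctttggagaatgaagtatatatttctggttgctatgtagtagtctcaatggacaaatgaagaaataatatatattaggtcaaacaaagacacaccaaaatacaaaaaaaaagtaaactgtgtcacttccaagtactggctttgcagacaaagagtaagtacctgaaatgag
Olfr545, chr7:102494724-102495023, minus strand: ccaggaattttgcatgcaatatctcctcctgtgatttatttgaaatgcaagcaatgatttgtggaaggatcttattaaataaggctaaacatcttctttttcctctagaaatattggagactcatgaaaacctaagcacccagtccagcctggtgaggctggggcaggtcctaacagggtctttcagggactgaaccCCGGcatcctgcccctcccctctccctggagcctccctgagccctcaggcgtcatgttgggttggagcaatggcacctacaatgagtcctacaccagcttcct
Olfr944, chr9:39217109-39217408, plus strand: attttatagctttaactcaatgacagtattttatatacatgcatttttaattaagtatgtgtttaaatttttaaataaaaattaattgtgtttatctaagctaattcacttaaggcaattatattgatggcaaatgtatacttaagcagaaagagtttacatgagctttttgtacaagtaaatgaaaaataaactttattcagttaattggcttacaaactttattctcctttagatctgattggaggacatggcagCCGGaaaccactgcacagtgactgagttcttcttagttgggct
Olfr1443, chr19:12677916-12678215, plus strand: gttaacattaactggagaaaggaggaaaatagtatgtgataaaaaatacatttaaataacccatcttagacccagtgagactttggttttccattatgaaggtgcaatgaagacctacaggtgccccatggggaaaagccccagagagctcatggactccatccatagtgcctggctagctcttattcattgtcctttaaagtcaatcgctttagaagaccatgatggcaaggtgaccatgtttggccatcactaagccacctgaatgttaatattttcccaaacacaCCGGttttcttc
Each of the other 4 promoters holds a single CCGG. It begins 206 bases before the annotated start in Olfr1009 and 53 bases before it in Olfr545. In Olfr944 and Olfr1443 it lies after the start, at 7 and 38 bases.

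A smaller share of cluster sites than of other sites gave any tag, as was also the case in other CCGG-poor regions. An MspI tag in either MspI library was found at 54.4% of cluster sites (95% exact interval 53.1% to 55.7%), against 74.7% of autosomal sites outside the windows. The share was 48.5% on chromosome 2, 58.5% on chromosome 7, 52.6% on chromosome 9 and 60.8% on chromosome 19. In the 1 Mb on either side of the windows it was 78.9%. The 12 whole 1 Mb bins inside the windows held 285 to 549 CCGG sites each, and the 1105 other autosomal 1 Mb bins with counts in that range served as comparison bins. The share with an MspI tag had a median of 48.2% over the 12 cluster bins and 57.3% over the comparison bins, whose quartiles were 48.0% and 68.0%. Of the cluster bins, 5 lay below the lower quartile and 2 above the upper. No library gave any tag at 43.8% of cluster sites, against 23.1% of autosomal sites outside.

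Part of the untagged sites lay in arrays whose spacing recurs across the genome. A site was counted as recurring when it belonged to 5 successive CCGG sites whose 4 distances were found in the same order, read in either direction, at 10 or more places. This held for 13.4% of cluster sites, against 5.88% of autosomal sites outside the windows, and 28 of the 730 recurring cluster sites (3.84%) had an MspI tag. The comparison bins had a median of 11.4% recurring sites and the 12 cluster bins a median of 13.1%. Tags were split among several positions at some sites. In all 4 libraries the count was a whole number, with 0 counted as whole, at 94.4% of cluster sites, against 97.1% of autosomal sites outside. The shares include sites with no tag in any library, 43.8% of cluster sites and 23.1% outside, so they do not compare tagged sites alone.

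Pooled over all their sites, the clusters were cut by HpaII somewhat less than the genome average in both fractions, and the 4 clusters differed among themselves. The level of a region is the log2 ratio of its HpaII tags to its MspI tags, each scaled to the library total, so 0 is the genome average of that fraction. The chromosome 2 cluster had 2863.5 HpaII and 5981 MspI tags in Emerald-high cells, and 3656 HpaII and 5881 MspI tags in the Emerald-negative cells. Its level was -0.34 ± 0.03 in Emerald-high cells and -0.72 ± 0.03 in the Emerald-negative cells (counting error, SE, 1 library per enzyme). It was the least cut of the 4 in both fractions over the whole windows. With the windows trimmed by 200 kb at each end, the chromosome 9 cluster, at -0.39 in Emerald-high cells and -0.72 in the Emerald-negative cells, lay below it, at -0.30 in Emerald-high cells and -0.68 in the Emerald-negative cells. The chromosome 9 cluster had levels of -0.14 ± 0.04 in Emerald-high cells and -0.34 ± 0.03 in the Emerald-negative cells. The chromosome 7 cluster had levels of 0.03 ± 0.03 in Emerald-high cells and -0.03 ± 0.02 in the Emerald-negative cells, near the genome average. In Emerald-high cells its level was -0.06 without the 0.1% of sites richest in MspI tags and -0.09 in the trimmed window. For the Emerald-negative cells these levels were -0.11 and -0.22. The chromosome 19 cluster was the most cut, at 0.19 ± 0.04 in Emerald-high cells and 0.09 ± 0.03 in the Emerald-negative cells. Over all sites of the whole windows the order was the same in both fractions. Among chromosomes 2, 7 and 9 it depended on which sites were used. At isolated sites, those with no other CCGG no more than 500 bp away, the chromosome 7 level was -0.17 in Emerald-high cells and -0.70 in the Emerald-negative cells, and the chromosome 9 level was -0.17 in Emerald-high cells and -0.55 in the Emerald-negative cells. At sites with at least 10 tags in each MspI library, chromosome 7 had -0.46 in Emerald-high cells and -0.85 in the Emerald-negative cells, and chromosome 9 had -0.40 in Emerald-high cells and -0.83 in the Emerald-negative cells. Pooled, the 4 clusters had a level of -0.06 in Emerald-high cells and -0.23 in the Emerald-negative cells, below their pooled flanks at 0.30 in Emerald-high cells and 0.38 in the Emerald-negative cells. The exception was chromosome 19, whose flanks, at -0.05 in Emerald-high cells and -0.12 in the Emerald-negative cells, lay below its cluster.

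Against bins with a like number of CCGG sites, the chromosome 7 and 19 clusters were more cut than most and the chromosome 2 cluster was within the middle range. The comparison bins had a median level of -0.21 in Emerald-high cells (quartiles -0.43 and 0.00) and of -0.47 in the Emerald-negative cells (quartiles -0.79 and -0.19). In Emerald-high cells the chromosome 19 cluster exceeded 89.3% of the comparison bins, the chromosome 7 cluster 79.0%, the chromosome 9 cluster 58.5% and the chromosome 2 cluster 34.4%. For the Emerald-negative cells the shares were 90.5% for chromosome 19, 85.8% for chromosome 7, 63.4% for chromosome 9 and 30.1% for chromosome 2. A cluster window pools several megabases, so it is less spread by chance than a single bin. Taken bin by bin, 4 of the 12 cluster bins lay above the upper quartile and 2 below the lower quartile in Emerald-high cells. In Emerald-negative cells 3 lay above and 2 below.

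**Figure D1:**
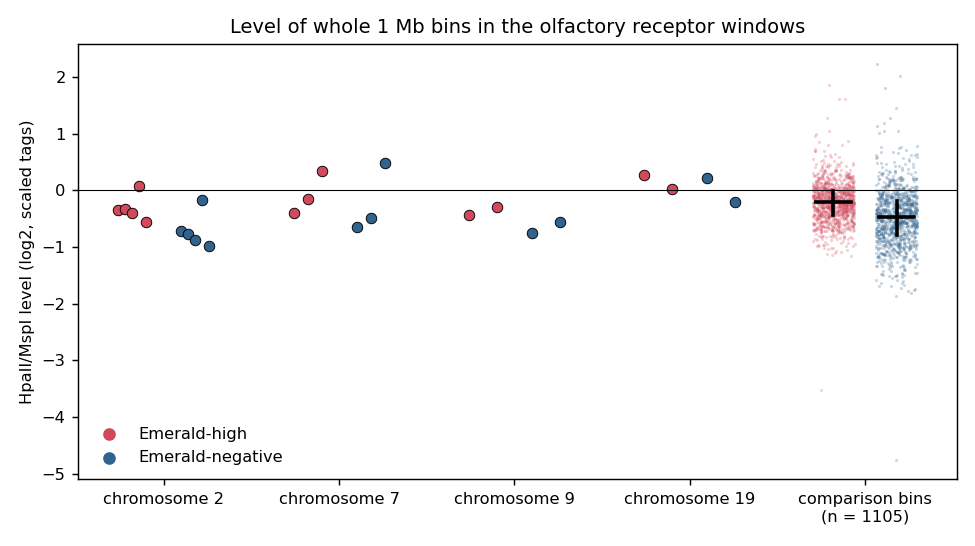
HpaII/MspI level (log2 of scaled tags, y axis) of the 12 whole 1 Mb bins inside the olfactory receptor windows, by chromosome, and of 1105 autosomal comparison bins with 285 to 549 CCGG sites; red is Emerald-high, blue is Emerald-negative, each point is a bin, and black bars give the median and quartiles of the comparison bins. The cluster bins span -0.56 to 0.34 in Emerald-high cells and -0.97 to 0.48 in the Emerald-negative cells, around comparison medians of -0.21 in Emerald-high cells and -0.47 in the Emerald-negative cells.

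Part of the higher levels of the chromosome 7 and 19 clusters stood in a few 100 kb bins. The 3 bins of the chromosome 7 window between chr7:112700001 and 113000000 held 15.4% of its sites and 30.2% of its HpaII tags in Emerald-high cells, and 37.5% in the Emerald-negative cells. They also held 19.4% of its MspI tags in both fractions. Their level was 0.67 in Emerald-high cells and 0.92 in the Emerald-negative cells, and the other 32 bins of that window had -0.17 in Emerald-high cells and -0.39 in the Emerald-negative cells. On chromosome 19, 3 bins with 26.8% of the sites held 41.1% of the HpaII tags in Emerald-high cells and 48.9% in the Emerald-negative cells. Their level was 0.71 in Emerald-high cells and 0.83 in the Emerald-negative cells, against -0.08 in Emerald-high cells and -0.38 in the Emerald-negative cells over the other 17 bins. All 6 bins hold a dense run of CCGG sites of the kind described below. On chromosome 9, the 3 bins with such a run had levels of 0.06 in Emerald-high cells and 0.00 in the Emerald-negative cells, against -0.20 in Emerald-high cells and -0.43 in the Emerald-negative cells over the other 24. The chromosome 2 window has no such run. Without the 9 bins, the 4 clusters pooled had a level of -0.22 in Emerald-high cells and -0.50 in the Emerald-negative cells, beside comparison bin medians of -0.21 in Emerald-high cells and -0.47 in the Emerald-negative cells. Those comparison bins keep their own dense sites. The 140 comparison bins with no dense site, one with at least 10 CCGG, itself counted, no more than 500 bp away, had lower medians of -0.35 in Emerald-high cells and -0.68 in the Emerald-negative cells. Without the 9 bins, the pooled clusters and each of the chromosome 7, 9 and 19 clusters lay above these lower medians in both fractions.

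**Figure D2:**
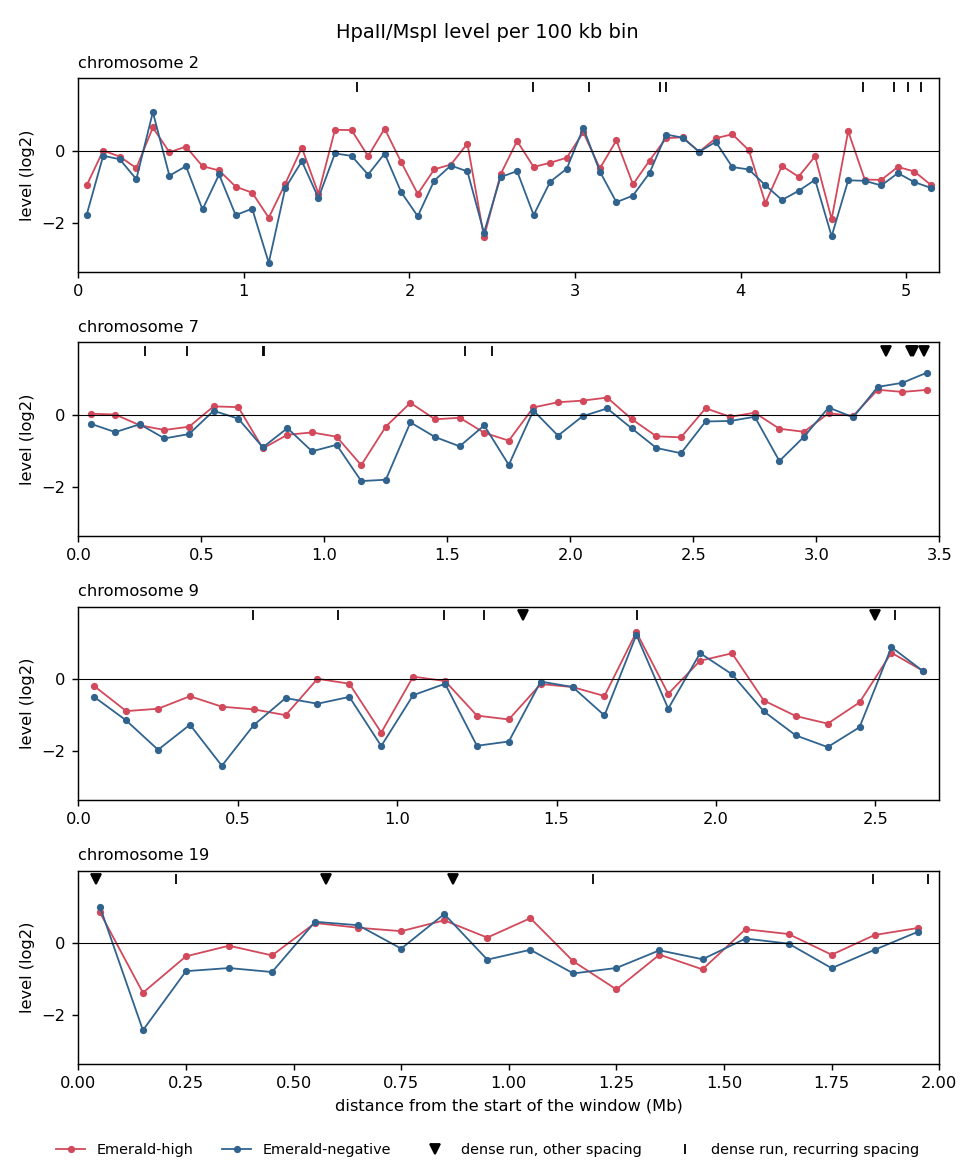
HpaII/MspI level (log2, y axis) of each 100 kb bin along the 4 windows, against the distance from the window's start in Mb (x axis), in Emerald-high (red) and Emerald-negative cells (blue); triangles mark dense CCGG runs of other spacing and ticks those of recurring spacing. The last 3 bins of chromosome 7 and the first of chromosome 19 stand high in both fractions, and the chromosome 2 profile runs mostly below 0.

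Within single clusters the level varied between 100 kb bins, which hold few tags and so spread more by counting alone than whole windows do. The standard deviation over the 134 cluster bins was 0.63 in Emerald-high cells and 0.80 in the Emerald-negative cells. Over bins outside the windows it was 0.72 in Emerald-high cells and 1.03 in the Emerald-negative cells. On chromosome 2 the level per bin ran between -2.39 and 0.64 in Emerald-high cells and between -3.10 and 1.06 in the Emerald-negative cells. Its least cut bin in Emerald-high cells, chr2:87400001-87500000, had 13 HpaII and 113 MspI tags there, and 22.5 HpaII and 106 MspI tags in the Emerald-negative cells. Its most cut bin in both fractions was chr2:85400001-85500000, with 62 HpaII and 66 MspI tags in Emerald-high cells and 109 HpaII and 51 MspI tags in the Emerald-negative cells. The most cut bin of all 134 in both fractions was chr9:39200001-39300000. It had 53 HpaII and 36 MspI tags in Emerald-high cells, for a level of 1.28, and 90 HpaII and 38 MspI tags in the Emerald-negative cells, for a level of 1.21. These bins were chosen after their values were seen.

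Emerald-high cells had relatively more HpaII cutting than Emerald-negative cells over the chromosome 2 and 9 clusters, while the chromosome 7 and 19 clusters had differences near the limit of their counting error. The difference is the level in Emerald-high cells minus the level in the Emerald-negative cells. It was 0.38 on chromosome 2 (95% counting interval 0.30 to 0.47), 0.20 on chromosome 9 (0.10 to 0.29) and 0.11 on chromosome 19 (0.01 to 0.20). On chromosome 7 it was 0.06 (-0.01 to 0.13). Whether these last values pass their counting error depended on the setting. Between the HpaII libraries alone, the difference was 0.07 on chromosome 19 (-0.003 to 0.14) and 0.10 on chromosome 7 (0.05 to 0.16). The chromosome 19 value was 0.08 ± 0.05 with whole-tag sites only and 0.09 ± 0.05 when the 0.1% of sites richest in MspI tags were left out (SE). In trimmed windows the chromosome 7 value was 0.13 ± 0.04. On chromosome 9 the HpaII libraries alone differed by 0.12 (0.05 to 0.20), and the MspI libraries by -0.07 (-0.13 to -0.01). So part of the chromosome 9 difference stood in the MspI libraries. On chromosome 2 the HpaII libraries differed by 0.40 and the MspI libraries by 0.01. Pooled over the clusters the difference was 0.17 (0.12 to 0.21), with a difference of 0.16 between the HpaII libraries and of -0.003 between the MspI libraries. In the flanks it was -0.08, and in the comparison bins the median was 0.27 with quartiles of 0.14 and 0.40. The positive difference is therefore shared with other CCGG-poor regions. The chromosome 2 value exceeded 72.1% of the comparison bins, the chromosome 9 value 34.9%, the chromosome 19 value 18.7% and the chromosome 7 value 11.4%. So the chromosome 7, 9 and 19 values lay below the median of the comparison bins. These values are relative to each library's total. Scaling to the tags of dense sites in place of the total adds 0.72 to every difference in the genome.

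Each whole 1 Mb bin was tested with Fisher's exact test and Benjamini-Hochberg adjustment over 2379 autosomal bins. The test compares the 4 libraries, not the conditions. Of the 12 cluster bins, 10 had relatively more HpaII cutting in Emerald-high cells at an adjusted p under 0.05, beside 46.4% of autosomal bins and 69.7% of comparison bins. The largest difference was 0.48 ± 0.09 (SE) at chr2:87000001-88000000, with an adjusted p of 2.16e-06 by Fisher's exact test. It had 673.8 HpaII and 1464.7 MspI tags in Emerald-high cells and 765.5 HpaII and 1368.7 MspI tags in the Emerald-negative cells. The bin called lower was chr7:112000001-113000000, with a difference of -0.14 ± 0.05 and an adjusted p of 0.0194 by the same exact test. Lower calls were made for 13.5% of autosomal bins and 1.54% of comparison bins. This bin had 2175.8 HpaII and 2853 MspI tags in Emerald-high cells and 3887 HpaII and 2726 MspI tags in the Emerald-negative cells, and it holds all 4 dense runs of other spacing of chromosome 7. The bin chr19:12000001-13000000, which holds those of chromosome 19, was not called, with a difference of 0.05 ± 0.06. The MspI libraries differed by more than counting error between 1 Mb bins, with a dispersion of 2.75 times. With counts divided by it, 3 bins were called higher, beside 20.4% of autosomal bins, and 0 lower, beside 7.02%. Scaled to dense sites, all 12 bins were called higher, the lower bin of chromosome 7 among them, but so were 100% of autosomal bins.

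At 100 kb all 134 cluster bins had at least 20 tags in each MspI library, the minimum for the test, and 7 were called. A call needed an adjusted p under 0.05 over 25529 bins and at least a 2-fold difference with 1 tag added. All 7 were higher in Emerald-high cells, 5.22% of the cluster bins beside 6.55% of all bins, and 0 were lower, beside 0.0196% of all bins. By adjusted p alone, 16 were higher, beside 20.7% of all bins, and 1 was lower, beside 5.49%. At an unadjusted p under 0.05, 30 were higher, 22.4% of the cluster bins beside 30.2% of all bins, and 1 was lower, beside 8.09%. By these rules the counts in the clusters were thus not above the background. With counts divided by the dispersion between MspI libraries, 1.52 times at this size, 4 were called higher, beside 3.97% of all bins. After thinning Emerald-negative HpaII tags down to the Emerald-high depth, 3 were called higher, beside 6.40% of all bins.

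Of the called bins, 4 lie on chromosome 2, 2 on chromosome 9 and 1 on chromosome 19. The bin chr2:88200001-88300000 had 58 HpaII and 79 MspI tags in Emerald-high cells and 32 HpaII and 84 MspI tags in the Emerald-negative cells. Its level was 0.28 in Emerald-high cells and -1.43 in the Emerald-negative cells, a difference of 1.71 (0.94 to 2.47) with an adjusted p of 0.000322 by Fisher's exact test. So a bin above the genome average in Emerald-high cells was among the less cut in the Emerald-negative cells. The bin chr2:89600001-89700000 also lay above 0 in Emerald-high cells and below 0 in the Emerald-negative cells, with a level of 0.53 in Emerald-high cells and -0.82 in the Emerald-negative cells and a difference of 1.36 (0.69 to 2.02). The MspI libraries differed there by -0.30, in the direction that raises the difference. The bin chr2:87700001-87800000, which holds a dense run of recurring spacing, had a difference of 1.33 (0.65 to 2.00), and chr2:85700001-85800000 had 1.19 (0.30 to 2.09). Of that last difference a part stood in the MspI libraries, which differed by -0.62 there, and its adjusted p of 0.0495 by the exact test lay at the threshold.

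On chromosome 9 the called bins were chr9:37700001-37800000, with a difference of 1.13 (0.42 to 1.84), and chr9:37900001-38000000, with 1.63 (0.42 to 2.84). The second had 18 HpaII and 51 MspI tags in Emerald-high cells and 11 HpaII and 57 MspI tags in the Emerald-negative cells, so its interval is wide. Both lie in the first 500 kb of the window. On chromosome 19 the called bin was chr19:12100001-12200000, with 75 HpaII and 324 MspI tags in Emerald-high cells and 56 HpaII and 292.5 MspI tags in the Emerald-negative cells. Its level was -1.38 in Emerald-high cells and -2.42 in the Emerald-negative cells, the lowest of that window in both. It lies next to chr19:12000001-12100000, the most cut bin of the window, with levels of 0.84 in Emerald-high cells and 1.00 in the Emerald-negative cells.

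No bin of the chromosome 7 window was called by both criteria. Its highest difference was at chr7:110700001-110800000, at 1.47 (-0.07 to 3.01), with 12 HpaII and 25 MspI tags in Emerald-high cells and 7.5 HpaII and 25.5 MspI tags in the Emerald-negative cells. Its lowest was at chr7:112900001-113000000, at -0.48 (-0.73 to -0.22), with an adjusted p of 0.00335 by Fisher's exact test and less than a 2-fold change. The lowest bins of the other windows had -0.49 (chr2:89100001-89200000), -0.47 (chr9:38100001-38200000) and -0.59 (chr19:13200001-13300000), each with an interval that included 0. Over the 134 bins, 108 had a positive difference (80.6%), beside 71.1% of bins outside the windows. The median was 0.32 in the clusters and 0.26 outside. Among bins with no dense site it was 0.37 over 104 cluster bins and 0.39 over 17713 bins outside.

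**Figure D3:**
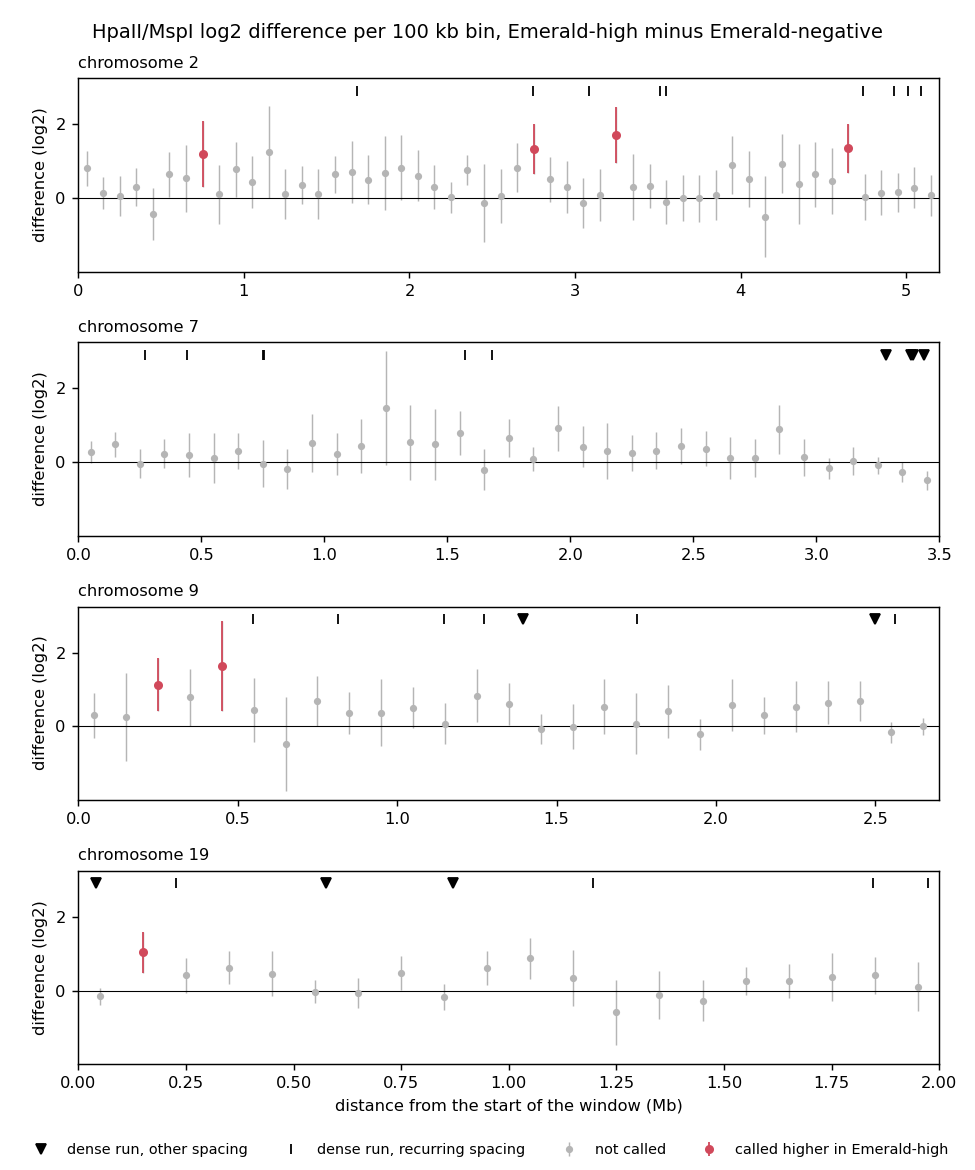
HpaII/MspI log2 difference, Emerald-high minus Emerald-negative (y axis), of each 100 kb bin along the 4 windows, against the distance from the window's start in Mb (x axis); bars are 95% counting intervals, red bins were called higher, and triangles and ticks mark dense CCGG runs of other and of recurring spacing. Most bins lie above 0, 7 of 134 were called, and the last bins of chromosome 7 lie below 0.

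The sign of the difference depended on how densely the CCGG sites lay. Each site was classed by how many CCGG, itself counted, lay no more than 500 bp away. A lone site was called isolated, the next classes held 2 to 4 and 5 to 9, and a site with at least 10 was called dense, as is common in CpG islands. In the clusters 2278 sites were isolated, 2204 had 2 to 4, 513 had 5 to 9 and 449 were dense. The difference was 0.45 (0.39 to 0.51) at isolated sites, 0.12 (0.05 to 0.19) at sites with 2 to 4, -0.54 (-0.70 to -0.39) at sites with 5 to 9 and -0.86 (-1.11 to -0.62) at dense sites. Autosomal sites outside the windows had 0.49, 0.09, -0.46 and -0.72 in the same order of classes. Scaled to dense sites, the value for 5 to 9 turned to 0.18 and that for dense sites was -0.14. Isolated sites had positive differences in each cluster, at 0.49 on chromosome 2, 0.53 on chromosome 7, 0.38 on chromosome 9 and 0.37 on chromosome 19. The 4 clusters were thus closer to each other at isolated sites than over all sites.

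Isolated sites were more cut in 11 of the 12 cluster bins than in the median bin of like CCGG count. Their level was -0.17 in Emerald-high cells and -0.62 in the Emerald-negative cells, against -0.49 in Emerald-high cells and -0.98 in the Emerald-negative cells at isolated autosomal sites outside the windows. In the comparison bins the median level of isolated sites was -0.37 in Emerald-high cells (quartiles -0.61 and -0.12) and -0.93 in the Emerald-negative cells (quartiles -1.24 and -0.58). Of the 12 cluster bins, 11 lay above that median in each fraction, 4 above the upper quartile and 0 below the lower. The share of isolated sites with an MspI tag was lower in the clusters, with a median of 61.8% per bin against 70.8% in the comparison bins, and its part in the level was not tested. The difference between fractions at isolated sites had a median of 0.44 over the cluster bins and 0.55 over the comparison bins, and 6 of the 12 lay below the lower quartile of 0.43.

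**Figure D4:**
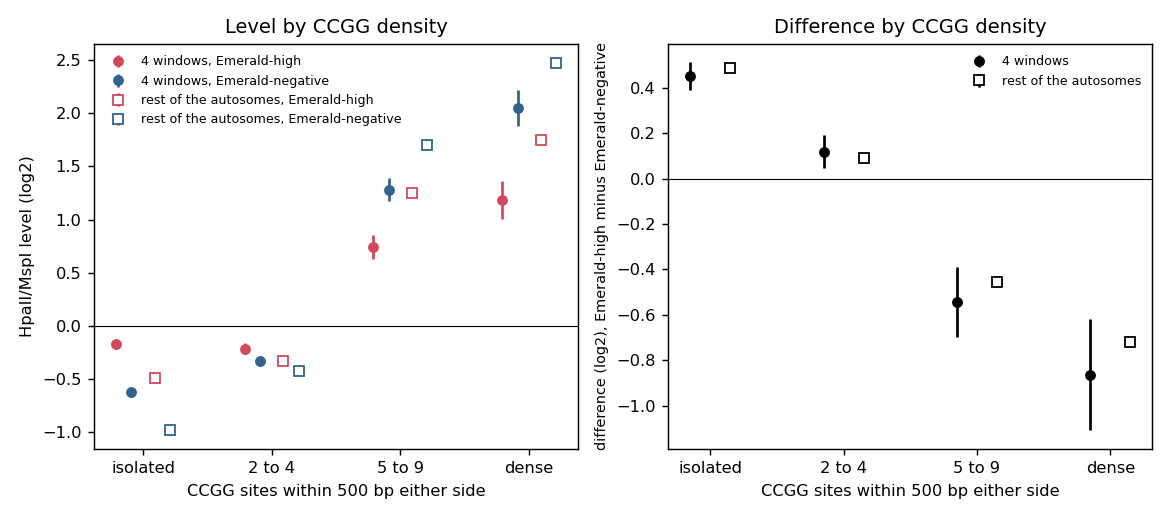
Level (left, log2) and difference, Emerald-high minus Emerald-negative (right, log2), by the number of CCGG sites within 500 bp either side, for the 4 windows (filled circles) and the autosomes outside them (open squares); red is Emerald-high, blue is Emerald-negative and bars are 95% counting intervals. The difference falls from 0.45 at isolated to -0.86 at dense sites in the windows, beside 0.49 to -0.72 outside; scaled to dense sites, the value for 5 to 9 in the windows is 0.18.

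Sites with 5 to 9 CCGG were rarely cut on chromosome 2 and highly cut on chromosome 7. On chromosome 2 these 119 sites had 45 HpaII and 269.7 MspI tags in Emerald-high cells and 70.7 HpaII and 215.3 MspI tags in the Emerald-negative cells. Their level was -1.86 in Emerald-high cells and -1.64 in the Emerald-negative cells, and without recurring sites it was -1.89 in Emerald-high cells and -1.76 in the Emerald-negative cells. On chromosome 7 the 224 sites had levels of 1.21 in Emerald-high cells and 1.89 in the Emerald-negative cells. In Emerald-high cells the class had 1.08 on chromosome 19, 0.34 on chromosome 9 and 1.25 on autosomes outside the windows. In the Emerald-negative cells it had 1.44 on chromosome 19, 0.59 on chromosome 9 and 1.70 on autosomes outside. The chromosome 2 value was the lowest of the 4 clusters in both fractions.

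Most dense runs of the clusters were of recurring spacing and gave almost no tags. Dense sites fell into 34 runs, of which 25 (73.5%) were made mostly of recurring sites, against 2187 of 9399 runs (23.3%) on autosomes outside the windows. On chromosome 2 all 9 runs were of this kind. The share of such runs was not computed for the comparison bins, whose median share of recurring sites was 11.4%, beside 13.1% in the cluster bins. The 25 runs include short ones, down to 1 site at chr9:40061778. Of the 25 runs, 13 had no MspI tag in either MspI library, and 15 of the 339 sites in the 25 runs had any. On autosomes outside the windows, 1561 of the 2187 such runs had no MspI tag, and 1192 of their 33980 sites had any. The 339 cluster sites gave 58.7 HpaII and 48 MspI tags in Emerald-high cells and 88.0 HpaII and 54.2 MspI tags in the Emerald-negative cells, under 1 tag per site in each library. Methylation of these runs could not be read from so few tags, and why they gave so few was not tested. The spacing of several recurred at more than 1000 places, as in the run chr2:89927606-89928550, whose 27 sites gave no tag in any library and whose median site shared its chain of distances with 1749 places.

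The other 9 dense runs shared their chain of distances with no other place and gave tags in all libraries. There were 4 on chromosome 7, 2 on chromosome 9 and 3 on chromosome 19. Pooled, their 110 sites had 542.5 HpaII and 390 MspI tags in Emerald-high cells and 1378.5 HpaII and 292 MspI tags in the Emerald-negative cells. Their level was 1.20 in Emerald-high cells and 2.20 in the Emerald-negative cells, a difference of -1.001 (-1.26 to -0.74). Autosomal runs of this kind outside the windows had levels of 1.78 in Emerald-high cells and 2.51 in the Emerald-negative cells, and a difference of -0.73. With dense sites as the scale the difference of the 9 runs was -0.28. The HpaII libraries differed by -0.59 and the MspI libraries by 0.41 over these sites, so part of the difference stood in the enzyme that does not read methylation.

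On chromosome 7 the 4 runs lie close together, between chr7:112782007 and 112936295. The largest, chr7:112884762-112885687, has 19 sites and gave 155 HpaII and 75 MspI tags in Emerald-high cells and 358 HpaII and 55 MspI tags in the Emerald-negative cells. Its level was 1.77 in Emerald-high cells and 2.67 in the Emerald-negative cells, a difference of -0.89 (-1.46 to -0.32). The run chr7:112935795-112936295 had the lowest difference of the 9, at -2.44 (-3.91 to -0.96), from 18 HpaII and 17 MspI tags in Emerald-high cells and 68 HpaII and 7 MspI tags in the Emerald-negative cells. The remaining runs, chr7:112782007-112782286 and chr7:112892548-112892838, had -1.26 (-2.32 to -0.20) and -1.54 (-2.56 to -0.52). Each of the 4 intervals lay below 0.

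On chromosome 19 the runs are at chr19:12040280-12040864, chr19:12575553-12576212 and chr19:12869320-12870397. They had 16, 13 and 20 sites and differences of -1.36 (-2.17 to -0.55), -1.46 (-2.27 to -0.64) and -1.09 (-1.84 to -0.34). Their levels were 1.28 to 1.78 in Emerald-high cells and 2.70 to 2.87 in the Emerald-negative cells.

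The runs of chromosome 9 had levels far apart. The run chr9:38893236-38893710, with 7 sites, was rarely cut by HpaII. It had 14.5 HpaII and 79 MspI tags in Emerald-high cells and 19.5 HpaII and 67 MspI tags in the Emerald-negative cells, for levels of -1.72 (-2.53 to -0.91) in Emerald-high cells and -1.82 (-2.54 to -1.09) in the Emerald-negative cells. The other 8 runs had levels above 0 in both fractions. The run chr9:39999767-40000331, with 12 sites, had 63 HpaII and 36 MspI tags in Emerald-high cells and 140 HpaII and 46 MspI tags in the Emerald-negative cells. Its level was 1.53 in Emerald-high cells and 1.57 in the Emerald-negative cells, a difference of -0.04 (-0.80 to 0.73). Neither run differed between fractions beyond its counting interval.

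**Figure D5:**
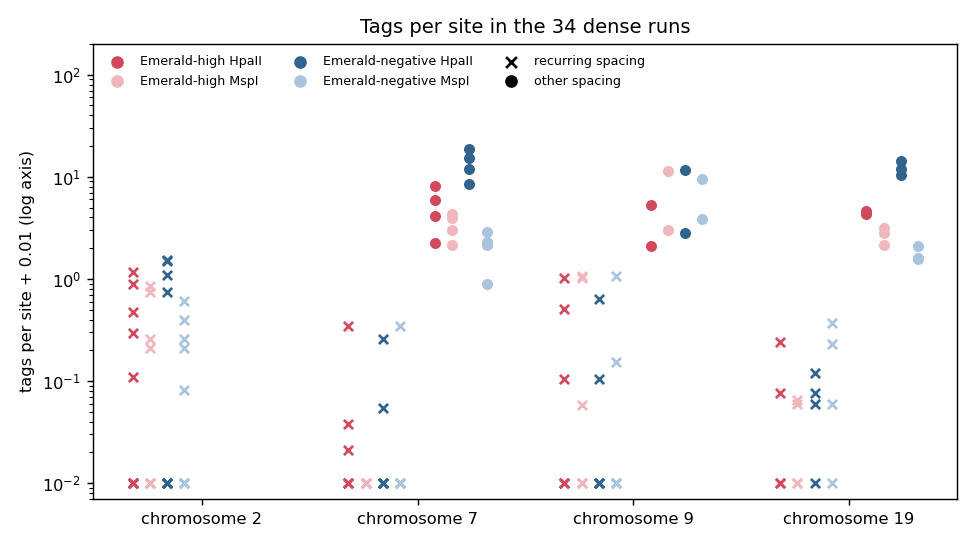
Tags per CCGG site (0.01 added, log y axis) in each of the 34 dense runs of the windows, by chromosome; crosses are the 25 runs of recurring spacing, circles the 9 of other spacing, and colours give the 4 libraries, Emerald-high to the left of Emerald-negative. Runs of other spacing had 0.875 to 18.8 tags per site, and most runs of recurring spacing had under 1 in every library.

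Single sites with many HpaII tags lay outside the dense runs. The 2 whole-tag sites with most scaled HpaII tags in each cluster were all isolated or had 2 to 3 CCGG within 500 bp. On chromosome 9 both lie at the far end of the window, at chr9:40047973 and chr9:40049378. They were between 12400 and 13805 bp from the nearest dense run, which is the 1 recurring site chr9:40061778. The site chr9:40049378 had 68 HpaII and 23 MspI tags in Emerald-high cells and 125 HpaII and 31 MspI tags in the Emerald-negative cells. On chromosome 7 the sites were chr7:109718132 and chr7:112799486, and on chromosome 19 chr19:12083096 and chr19:12592547. On chromosome 2 they were chr2:85154028 and chr2:88676671, both more than 100 kb from any dense run. The site chr2:88676671 is isolated and had 56 HpaII and 22 MspI tags in Emerald-high cells and 71 HpaII and 24 MspI tags in the Emerald-negative cells. Its level was 2.07 in Emerald-high cells and 1.53 in the Emerald-negative cells. The 1% of cluster sites with most tags in a library, 54 sites, held 15.4% of the cluster's HpaII tags in Emerald-high cells and 17.5% in the Emerald-negative cells. The share of MspI tags in the top 1% was 8.13% in Emerald-high cells and 8.10% in the Emerald-negative cells.

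Well covered cluster sites were seldom highly cut. A site score of 100 × (2/π) × arctan(HpaII/MspI) on scaled tags, 0 where no HpaII tag was found and 50 where both were equal, was given to the 539 cluster sites with at least 10 tags in each MspI library. The median score was 29.3 in Emerald-high cells and 18.1 in the Emerald-negative cells, against 26.7 in Emerald-high cells and 14.4 in the Emerald-negative cells on autosomes outside the windows. A score above 80 was found at 2.78% of these sites in Emerald-high cells (95% exact interval 1.57% to 4.55%), against 6.13% outside, and at 2.97% in the Emerald-negative cells (1.71% to 4.78%), against 7.67% outside. A score below 20 was found at 34.9% in Emerald-high cells and 52.7% in the Emerald-negative cells, against 39.6% in Emerald-high cells and 57.7% in the Emerald-negative cells outside. So the covered cluster sites, 9.90% of all cluster sites, lay more often in the middle of the scale than covered sites outside. Outside the windows 14.3% of autosomal sites were covered, and the comparison bins were not scored. Emerald-high cells had the higher score at 371 of the 539 sites (68.8%), the lower at 149 and an equal one at 19, and outside the windows they had the higher score at 65.4% of sites. By cluster the median score was 26.5 in Emerald-high cells and 15.2 in the Emerald-negative cells on chromosome 2. In Emerald-high cells it was 29.1 on chromosome 7, 28.8 on chromosome 9 and 37.2 on chromosome 19, and in the Emerald-negative cells 19.2 on chromosome 7, 11.2 on chromosome 9 and 24.8 on chromosome 19. The chromosome 19 cluster thus stood highest by this measure as well.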

How the data were processed

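Genomic DNA of 2 sorted fractions was cut with HpaII or MspI and sequenced as HELP tags, in 4 libraries. Per the file headers and values, the deposited files give estimated counts of tags at each CCGG position of mm9 in 2 parts and their sum. The sums were used. They equal the totals in the file headers and were not scaled by the authors. Not given in the sources used here are the meaning of the parts, the aligner and the handling of multiply matching tags. The build is named in the submitters' processing notes. Fractional tags stood at 1.67% to 1.94% of sites, depending on the library.

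Tags were scaled to library totals and summed over windows, density classes and bins. Log2 ratios carry Poisson intervals and shares exact (Clopper-Pearson) ones, both 95%. Both cover counting error only, as tags have no molecular identifiers. Fisher's exact test used tags rounded to whole numbers, with the odds ratio of the library totals as its null. A bin belonged to a window if its centre did. Named bins were the highest and lowest difference in each cluster and every called bin, and named sites the 2 with most scaled HpaII tags. Dense sites were joined into runs by position. The tests were tried on simulated data. The alternatives were other scalings, site and bin filters, bin sizes, a pseudocount of 0.5, the dispersion between MspI libraries, thinning and trimmed windows. Recurring spacing, and the removal of bins with dense runs, were chosen after seeing the data. The windows and lists were chosen with earlier results of these data known. Software was scipy 1.17.1, numpy 2.4.6, numba 0.67.0, pandas 2.3.3 and matplotlib 3.10.9 under Python 3.11.15.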

Additional observations from a re-analysis of the deposited data

Results flagged for a closer look

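In 3 density classes of the pooled clusters, the Emerald-high library was above the Emerald-negative one for HpaII and below it for MspI, or the reverse, and this contrast was not tested. At isolated sites the HpaII difference was 0.36 and the MspI difference -0.09, for a ratio difference of 0.45. At sites with 5 to 9 CCGG the HpaII difference was -0.25 and the MspI difference 0.29, for -0.54. At dense sites the HpaII difference was -0.53 and the MspI difference 0.33, for -0.86.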

How the results depend on the processing

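No paired analysis was possible because each fraction had 1 library per enzyme, which also means that no replicate could be left out. Scaled to dense sites, the differences were 1.11 (chromosome 2), 0.78 (chromosome 7), 0.92 (chromosome 9), 0.83 (chromosome 19) and 0.89 (pooled), since every difference shifts by 0.72. The pooled levels then were -1.81 in Emerald-high cells and -2.70 in the Emerald-negative cells, and the chromosome 19 levels turned to -1.55 (Emerald-high) and -2.38 (Emerald-negative). With isolated sites only, the differences were 0.49 (chromosome 2), 0.53 (chromosome 7), 0.38 (chromosome 9), 0.37 (chromosome 19) and 0.45 (pooled). The pooled levels were -0.17 (Emerald-high) and -0.62 (Emerald-negative), and those of chromosome 19 turned to -0.062 (Emerald-high) and -0.43 (Emerald-negative). With at least 10 MspI tags per site and library, the differences were 0.39 (chromosome 7), 0.43 (chromosome 9), 0.42 (chromosome 19) and 0.39 (pooled), the pooled levels -0.41 (Emerald-high) and -0.81 (Emerald-negative), and the chromosome 19 levels turned to -0.22 (Emerald-high) and -0.64 (Emerald-negative). With trimmed windows, the difference was 0.33 on chromosome 9 and 0.24 pooled, the pooled levels were -0.16 (Emerald-high) and -0.40 (Emerald-negative), and the chromosome 19 level in the Emerald-negative cells turned to -0.022. Without the bins that hold dense runs of other spacing, the differences were 0.22 (chromosome 7), 0.30 (chromosome 19) and 0.28 (pooled), the pooled levels -0.22 (Emerald-high) and -0.50 (Emerald-negative), and the chromosome 19 levels turned to -0.081 (Emerald-high) and -0.38 (Emerald-negative). With whole-tag sites only, the pooled levels were -0.13 (Emerald-high) and -0.28 (Emerald-negative), and with the top 0.1% of sites by MspI tags left out they were -0.16 (Emerald-high) and -0.32 (Emerald-negative). Against comparison bins with no dense site, the chromosome 2 level in Emerald-high cells lay 0.013 above their median, against -0.13 relative to the median of all comparison bins. No cluster difference turned negative under any of these settings.

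Of the 100 kb bins, 7 were called higher and 0 lower. The count of higher calls was 15 with 50 kb bins (6.20% of cluster bins, 8.64% of all bins), 2 with 200 kb bins (2.94%, 2.56%), 75 scaled to dense sites (56.0%, 48.2%), 16 by adjusted p alone (11.9%, 20.7%, with 1 lower), 4 with counts divided by the MspI dispersion (2.99%, 3.97%) and 3 after thinning (2.24%, 6.40%), the shares in the same order each time. Of the 1 Mb bins, 10 of 12 were called higher and 1 lower. Scaled to dense sites 0 were lower and 12 higher, as were 100% of autosomal bins. With counts divided by the MspI dispersion 3 were higher (20.4% of autosomal bins) and 0 lower (7.02%). The causes were not tested. Depth limits single bins: called ones held as few as 11 HpaII tags in a library.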
